A study of Mus musculus with 20 samples.

Results

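The genes described here are 10 vascular genes of the mouse, Pecam1, Cdh5, Kdr, Flt1, Tek, Tie1, Angpt1, Angpt2, Vegfa and Eng, chosen by name as receptors, ligands and junction proteins of blood vessels. All 10 were found among the 14776 genes of the deposited table, and all 10 passed the filter on low values in each comparison. The tissue was epididymal fat (eWAT), taken from male C57BL/6J mice whose feeding began at 6 weeks of age. The 6 NC mice received maintenance feed. The 7 HFD mice received for 14 weeks a high-fat diet, in which fat supplied 60% of the energy, and then saline for 6 weeks with the diet continued. The 7 SZ-A mice received the same diet and, in place of saline, Ramulus Mori (Sangzhi) alkaloids from mulberry twig by gavage at 400 mg/kg per day for the 6 weeks. The model is diet-induced obesity of wild-type male mice, the tissue was sequenced whole, and SZ-A was given only to mice that were already on the diet.

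Fat tissue is fed by a dense capillary bed, and that bed has to follow the size of the fat cells. Vascular endothelial growth factor A (Vegfa), which adipocytes and other cells secrete, acts on endothelial cells through the receptor kinase Kdr (VEGFR2), while Flt1 (VEGFR1) binds the same ligand tightly and in part acts as a decoy. In the second system Angpt1, made largely by mural and mesenchymal cells, activates the receptor Tek (Tie2) and keeps vessels quiet, whereas Angpt2, released by endothelial cells, can block Tek and loosen vessels, and Tie1 is the partner receptor of Tek. Pecam1 and Cdh5 (VE-cadherin) hold endothelial cells together, and Eng (endoglin) is a co-receptor for ligands of the TGF-β family.

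In the deposited values Vegfa was lower and Angpt2 higher in HFD than in NC mice, while the 7 receptors and junction genes gave no call. In SZ-A mice Vegfa and Flt1 were higher and Angpt2 lower than in HFD mice. None of the 10 genes was called between SZ-A and NC mice. Values are FPKM, fragments scaled to exon length and library size, so that levels of different genes can be compared. Fold changes are differences of mean log2(FPKM + 1), tested by limma with Benjamini-Hochberg adjustment over all genes tested, and a call is an adjusted p under 0.05. Because whole tissue was sequenced, fewer cells of a type and less RNA per cell cannot be told apart.

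The stretches upstream of 3 of the genes are shown because Vegfa and Flt1 are the called genes with an entry in the RefSeq promoter table for GRCm38.p6, and Kdr is the receptor that shares the ligand with Flt1. Of the 10 genes, 6 had an entry (Eng, Tek, Tie1, Kdr, Flt1 and Vegfa). Vegfa has 2 entries, and the first is printed. Each run is the 250 bases before the annotated start, 5′ to 3′ on the strand of the gene. Capitals mark AGGAAG or, for the other strand, CTTCCT, an extended form of the GGAA core that ETS factors of endothelial cells are known to bind.
Vegfa, chr17:46032378-46032627, minus strand: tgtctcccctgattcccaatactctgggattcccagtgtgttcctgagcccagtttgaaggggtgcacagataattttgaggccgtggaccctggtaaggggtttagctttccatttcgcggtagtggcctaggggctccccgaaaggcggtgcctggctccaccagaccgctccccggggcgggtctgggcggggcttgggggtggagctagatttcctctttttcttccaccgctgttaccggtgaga
Flt1, chr5:147726012-147726261, minus strand: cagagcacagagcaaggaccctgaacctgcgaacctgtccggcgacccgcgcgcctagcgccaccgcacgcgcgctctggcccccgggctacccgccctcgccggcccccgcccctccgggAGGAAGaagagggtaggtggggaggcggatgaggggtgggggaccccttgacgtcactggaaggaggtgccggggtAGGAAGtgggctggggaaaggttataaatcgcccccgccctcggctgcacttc
Kdr, chr5:75978456-75978705, minus strand: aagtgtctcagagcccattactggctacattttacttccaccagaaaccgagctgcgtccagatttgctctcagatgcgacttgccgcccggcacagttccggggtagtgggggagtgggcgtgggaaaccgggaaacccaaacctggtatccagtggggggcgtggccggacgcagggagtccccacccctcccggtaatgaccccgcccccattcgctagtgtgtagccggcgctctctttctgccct
The marked letters occurred 2 times upstream of Flt1, 2 times upstream of Eng and 1 time upstream of Tie1, and not in the windows of Kdr, Tek or Vegfa. The same letters were found in 29.5% of the 32851 upstream windows of this length in the table. The GGAA core itself, which lies inside the longer motif, was present in every one of the 6 genes and in 93.4% of all windows. The letters ACGTG, core of the element bound by hypoxia-inducible factors, and their reverse complement CACGT were absent from the Vegfa window printed and occurred 1 time in its second window. That second window, chr17:46025164-46025413, lies inside the span of the Vegfa gene, chr17:46016993-46032369. Of all windows, 16.6% held these letters. A match is a description of letters and no evidence of binding.

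Between 13567667 and 17784213 reads per mouse were recovered on the deposited genes in NC, between 17216011 and 19388628 in HFD and between 15305451 and 18717598 in SZ-A mice. Outside NC replicate 6, each of the 10 genes rested on at least 45 reads in every mouse and on up to 9486. The library labelled NC replicate 6 stood apart. Its Adipoq level, the adipocyte hormone adiponectin, was 26.6 FPKM against 859 to 2278 FPKM in the other NC mice, and it held between 1 and 1233 reads for each of the 10 genes. The epithelial cadherin Cdh1 was at 71.1 FPKM in that mouse. Cdh1 ranged from 13.0 to 56.2 FPKM in NC replicates 1, 2, 4 and 5, reached 28.4 and 26.1 FPKM in SZ-A replicates 2 and 7 and 2.59 FPKM in SZ-A replicate 3, and was at or below 0.184 FPKM in all HFD mice. Of 12 markers of the epididymal tract, 4 were in the table, and their mean log2 level ran from 2.82 to 8.33 in NC, from 1.56 to 2.45 in HFD and from 0.94 to 6.75 in SZ-A mice. For the 10 genes, the called changes are therefore given with and without some of these libraries. NC replicate 6 was left out in comparisons with NC, and SZ-A replicates 2 and 7 in those between SZ-A and HFD. NC replicates 1 and 2, at 56.2 and 35.9 FPKM of Cdh1, were kept in these fits, as were NC replicates 4 and 5. SZ-A against NC without NC replicate 6 kept SZ-A replicates 2 and 7. Leaving these libraries out thus does not clear a comparison of epithelial RNA. For other genes and for lists the values are from all mice unless stated. The part of epithelial RNA in the results was not tested.

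NC replicate 6 had the lowest value of the NC mice for 10 of the 10 genes, and HFD replicate 1 had the lowest of the HFD mice for 9 of them, all but Angpt1. NC replicate 3 was the highest NC mouse for 9 genes, all but Angpt2. Over the 10 genes the median coefficient of variation between mice was 73.4% for NC, 34.5% for HFD and 37.0% for SZ-A. Levels of 20 other pan-endothelial genes, all present in the table, were read beside the 10 genes. In whole tissue they cannot show which cells expressed the 10 genes. The mean log2 level of the 20 pan-endothelial genes lay between 2.93 and 4.01 in HFD mice and between 3.31 and 4.40 in SZ-A mice. It lay between 3.02 and 4.62 in the NC mice other than replicate 6, in which it was 1.25.

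**Figure D1:**
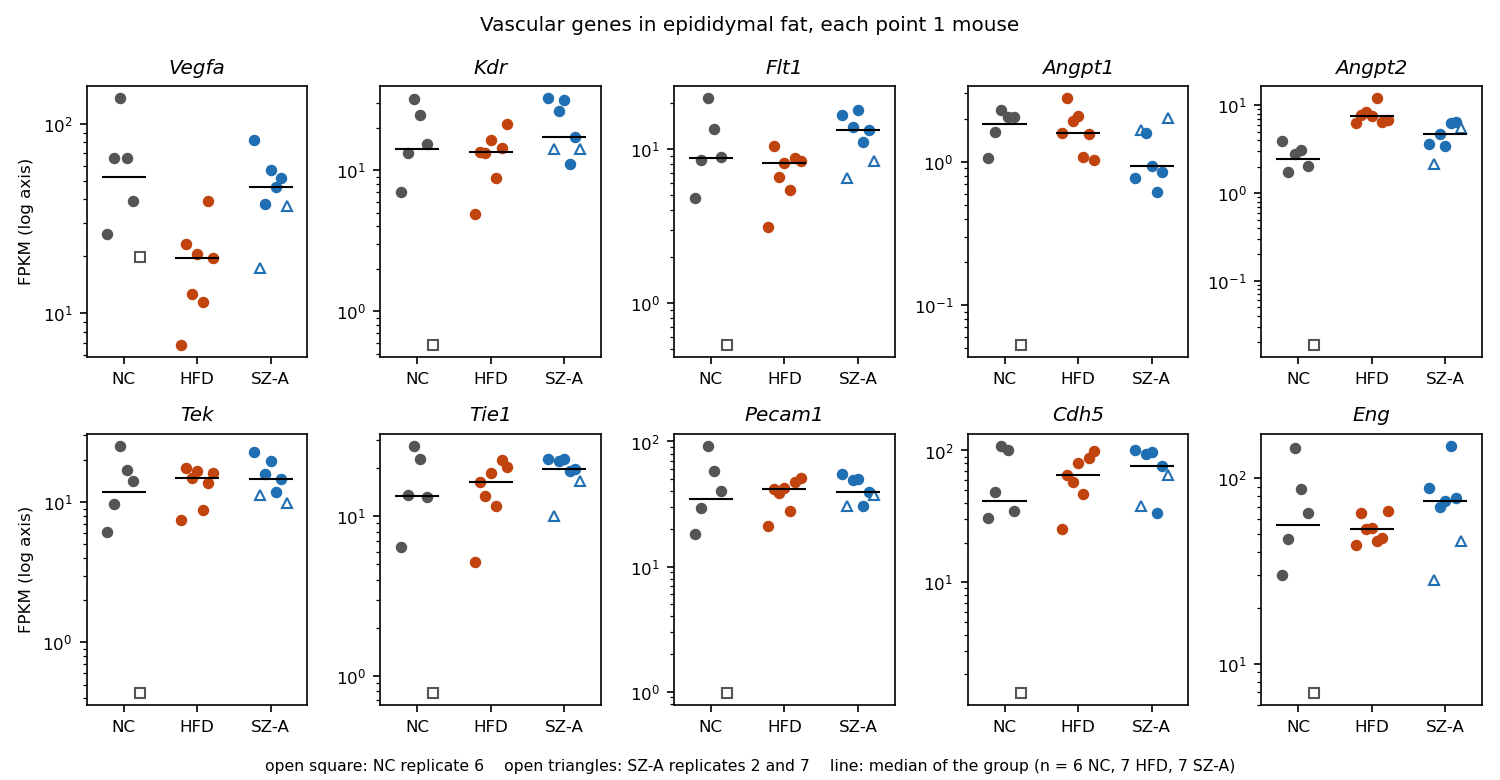
FPKM of the 10 genes on a log axis, 1 panel per gene and 1 point per mouse, with a line at the median of each group. The 7 HFD mice sit above all NC mice for Angpt2 (6.33 to 12.0 FPKM), and the open square of NC replicate 6 lies at the bottom of the NC column in every panel.

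In HFD mice the levels of the 10 genes spanned from 66.1 ± 25.4 FPKM for Cdh5 to 1.72 ± 0.61 FPKM for Angpt1 (mean ± SD, n = 7). Eng, at 53.7 ± 9.02 FPKM, and Pecam1, at 38.5 ± 10.6 FPKM, followed Cdh5. Vegfa stood at 19.1 ± 10.7 FPKM. The 3 receptors Tie1 at 15.4 ± 5.85, Tek at 13.6 ± 3.92 and Kdr at 13.2 ± 5.23 FPKM were closer to each other than their spread. Angpt2 at 7.91 ± 1.96 and Flt1 at 7.25 ± 2.43 FPKM likewise did not differ beyond their spread. Among the 2 angiopoietins, Angpt2 was thus the more abundant in HFD mice, and in NC mice the means were 2.28 ± 1.35 FPKM for Angpt2 and 1.52 ± 0.84 FPKM for Angpt1 (n = 6).

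To ask what the diet did to the vascular genes, HFD mice were compared with NC mice. Of the 10 genes, 1 rose and 1 fell, against 41.1% of the 14706 genes tested (21.0% higher and 20.1% lower). Whether so few genes differ in share from the whole table was not tested. The median log2 fold change was 0.34 over the 10 genes and -0.04 over all genes. Without NC replicate 6 the same counts came out, 1 higher and 1 lower, against 45.2% of all genes (22.6% in each direction), and the median over the 10 genes became -0.10.

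Vegfa lies at chr17:46016993-46032369 on the minus strand. Its FPKM had a lowest value of 19.7, a median of 52.6 and a highest value of 137 in NC mice, and 6.82, 19.5 and 39.4 in HFD mice. All 7 HFD mice were below the NC median and 4 of them below the lowest NC mouse, but the groups overlapped. The log2 fold change was -1.46 (SE 0.45, adjusted p = 0.018, limma). The lowest NC mouse was replicate 6, and with it left out 6 of the 7 HFD mice lay below every NC mouse and the value was -1.71 (SE 0.42, adjusted p = 0.0052).

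Angpt2 lies at chr8:18690263-18741562 on the minus strand. Its FPKM ran from 0.0186 through a median of 2.42 to 3.91 in NC mice, and from 6.33 through 7.56 to 12.0 in HFD mice. Every HFD mouse was above every NC mouse. Groups without overlap, in either direction, were found for 20.5% of all genes. The log2 fold change was 1.57 (SE 0.30, adjusted p = 0.0010). The lowest NC value was that of replicate 6, which held a single read, and without it the NC mice ran from 1.74 to 3.91 FPKM and the change was 1.26 (SE 0.17, adjusted p = 7.1e-05). With all mice Angpt2 was the 1 gene of the 10 that also passed the threshold of the study, a log2 fold change above 1.5, which 7.97% of all genes did. With NC replicate 6 left out it was Vegfa that passed it and Angpt2 that did not.

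Angpt1, at chr15:42424723-42676977 on the minus strand, had medians of 1.84 FPKM in NC and 1.58 FPKM in HFD mice, with HFD values from 1.03 to 2.77 FPKM and NC values from 0.0527 to 2.30 FPKM. The log2 fold change was 0.17 (95% interval -0.36 to 0.70, adjusted p = 0.60), and -0.06 without NC replicate 6. The ratio of Angpt2 to Angpt1, taken in each mouse as the difference of log2(FPKM + 1), was 0.32 ± 0.49 in NC and 1.72 ± 0.46 in HFD mice (mean ± SD, n = 6 and 7). Only the NC replicate 1 value of 1.25 reached into the HFD range, which began at 1.22. The difference of 1.40 passed a two-sided exact permutation test over all 1716 regroupings of the mice (p = 0.0012, adjusted p = 0.0070 over the 6 ratio tests). It was 1.33 without NC replicate 6 (exact permutation p = 0.0025, adjusted p = 0.015).

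**Figure D2:**
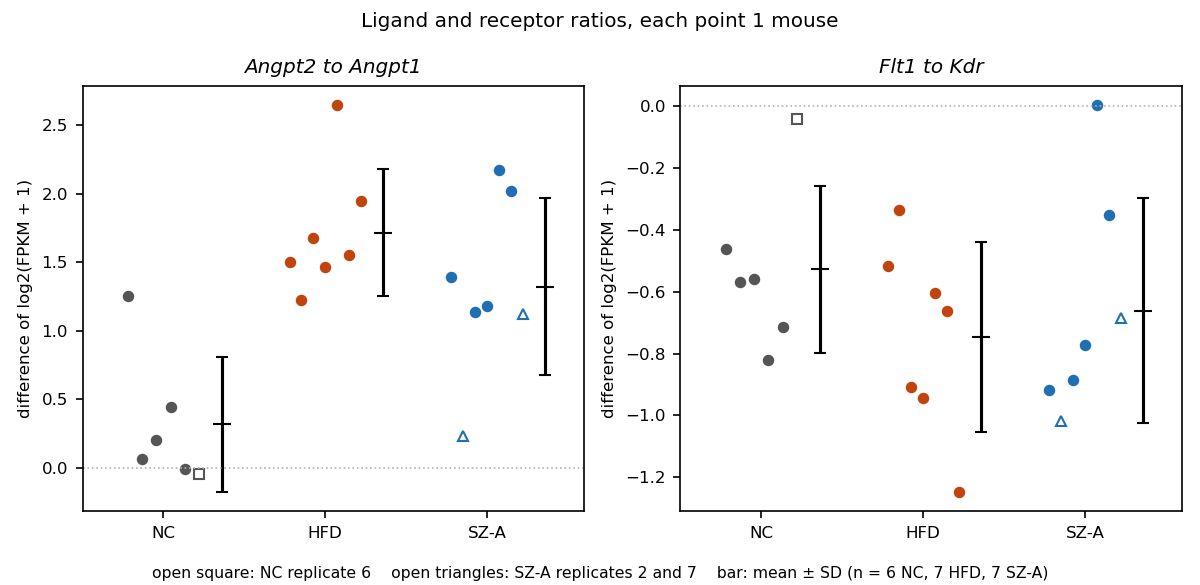
Differences of log2(FPKM + 1) between Angpt2 and Angpt1 (left) and between Flt1 and Kdr (right), 1 point per mouse, with the mean and SD of each group beside the points. For the angiopoietins 5 of the 6 NC mice lie below the whole HFD range, whereas the groups overlap throughout for the VEGF receptors.

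The VEGF receptors gave no call. Kdr (chr5:75932827-75978458, minus strand) had medians of 14.2 FPKM in NC and 13.5 FPKM in HFD mice, with a log2 fold change of 0.19 (95% interval -1.07 to 1.45) that became -0.39 (-1.17 to 0.39) without NC replicate 6. Flt1 (chr5:147561604-147726011, minus strand) had medians of 8.74 and 8.08 FPKM and a log2 fold change of -0.03 (-1.09 to 1.03), which became -0.51 (-1.18 to 0.17). These intervals include changes of more than 2-fold with all mice, so no statement that the receptors stayed level can be made. The ratio of Flt1 to Kdr was -0.53 ± 0.27 in NC and -0.75 ± 0.31 in HFD mice (exact permutation p = 0.21).

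Tek (chr4:94739289-94874976, plus strand) and its partner Tie1 (chr4:118471191-118490061, minus strand) had log2 fold changes of 0.55 (SE 0.53) and 0.46 (SE 0.55), and of 0.01 (SE 0.30) and -0.07 (SE 0.36) without NC replicate 6. The junction genes Pecam1 (chr11:106654217-106750628, minus strand) and Cdh5 (chr8:104101625-104144511, plus strand) stood at 0.59 (SE 0.68) and 0.87 (SE 0.72), and at -0.14 (SE 0.34) and 0.12 (SE 0.38) without that mouse. Eng (chr2:32646595-32682669, plus strand) changed sign from 0.22 (SE 0.51) to -0.29 (SE 0.30). None of the 5 was called either way, with adjusted p from 0.35 to 0.76 with all mice. The single library thus decided the sign for Pecam1, Tie1, Kdr, Angpt1 and Eng. Part of Eng overlaps Fpgs on the other strand, whose mean was 6.42 FPKM, and no source used here says that strand was used in counting.

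To ask what SZ-A did on the same diet, SZ-A mice were compared with HFD mice. Of the 10 genes, 2 rose and 1 fell, against 22.8% of the 14695 genes tested (9.47% higher and 13.3% lower). None of the 10 passed the threshold of 1.5 on the log2 scale, which 0.864% of all genes did. None had groups without overlap, as 6.08% of all genes had. The median log2 fold change was 0.25 over the 10 genes and 0.03 over all genes. Without SZ-A replicates 2 and 7, a choice made after seeing the data, 5 genes were called, 3 higher and 2 lower, against 25.9% of all genes. The comparison shares its 7 HFD mice with the preceding one, so the opposite signs of Vegfa and Angpt2 in the 2 comparisons are not independent.

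Vegfa in SZ-A mice ran from 17.4 through a median of 46.8 to 82.3 FPKM, against 6.82, 19.5 and 39.4 FPKM in HFD mice. Of the 7 SZ-A mice, 6 were above the HFD median and 4 above the highest HFD mouse. The log2 fold change was 1.31 (SE 0.35, adjusted p = 0.016). The lowest SZ-A mouse was replicate 2, and without replicates 2 and 7 the change was 1.61 (SE 0.34, adjusted p = 0.0058).

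Angpt2 ran from 2.13 through 4.71 to 6.49 FPKM in SZ-A mice, against 6.33, 7.56 and 12.0 FPKM in HFD mice. All 7 SZ-A mice were below the HFD median and 6 of them below the lowest HFD mouse. The difference on the log2 scale was -0.70 (SE 0.19, adjusted p = 0.018), and -0.60 (SE 0.18, adjusted p = 0.025) without SZ-A replicates 2 and 7. With all 3 groups in 1 limma fit Angpt2 was no longer called (adjusted p = 0.095).

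Flt1 ran from 6.53 through 13.3 to 18.0 FPKM in SZ-A mice, against 3.12, 8.08 and 10.5 FPKM in HFD mice, and 5 of the 7 SZ-A mice exceeded every HFD mouse. Flt1 differed by 0.72 on the log2 scale (SE 0.24, adjusted p = 0.044). The 2 SZ-A mice inside the HFD range were replicates 2 and 7, and without them the change was 0.96 (SE 0.22, adjusted p = 0.0087). The call is close to the threshold. Leaving out a single mouse ended it in 9 of 14 cases (HFD replicates 1, 3, 4, 5 and 7, SZ-A replicates 1, 3, 4 and 6), with the change between 0.56 and 0.76. It was also lost with all 3 groups in 1 limma fit (adjusted p = 0.26) and with the replicate number as a block (adjusted p = 0.098).

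Kdr, the main signalling receptor, had medians of 17.2 FPKM in SZ-A and 13.5 FPKM in HFD mice. Its log2 fold change of 0.63 (95% interval 0.00 to 1.26, adjusted p = 0.13) was not called. The ratio of Flt1 to Kdr was -0.66 ± 0.36 in SZ-A and -0.75 ± 0.31 in HFD mice, a difference of 0.08 (exact permutation p = 0.65, n = 7 and 7). The call of Flt1 and the absence of a call for Kdr therefore do not show that the 2 receptors responded differently.

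Angpt1 had a median of 0.94 FPKM in SZ-A mice, with values from 0.62 to 2.03 FPKM, and 4 of the 7 mice were below the lowest HFD mouse. A change of -0.30 on the log2 scale (SE 0.17, adjusted p = 0.20) was not called, but reached -0.46 (SE 0.16, adjusted p = 0.048) without SZ-A replicates 2 and 7, which had the highest Angpt1 of their group. The ratio of Angpt2 to Angpt1 was 1.32 ± 0.65 in SZ-A against 1.72 ± 0.46 in HFD mice (difference -0.39, exact permutation p = 0.22, adjusted p = 0.33).

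For Tek, Tie1, Pecam1 and Cdh5 the log2 fold changes were 0.14, 0.36, 0.13 and 0.13, with adjusted p from 0.33 to 0.79, and the 95% intervals ended at 0.60, 0.92, 0.56 and 0.81. Eng had a change of 0.36 (SE 0.27, adjusted p = 0.34), with 5 of the 7 SZ-A mice above every HFD mouse and replicate 2 below all of them. Without SZ-A replicates 2 and 7 Eng was called, at 0.73 (SE 0.19, adjusted p = 0.014). Leaving out SZ-A replicate 5 alone took the change of Eng to 0.18. The highest Eng value, 148 FPKM, was in SZ-A replicate 5, in which the haemoglobin gene Hbb-bs was at 5627 FPKM against 155 to 1157 FPKM in the other SZ-A mice and mitochondrial genes took 11.6% of the reads. Of 8 blood and lymphocyte markers tested, 5 rose and 0 fell in SZ-A against HFD mice. The part of blood RNA in the Eng value of SZ-A replicate 5 was not tested.

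**Figure D3:**
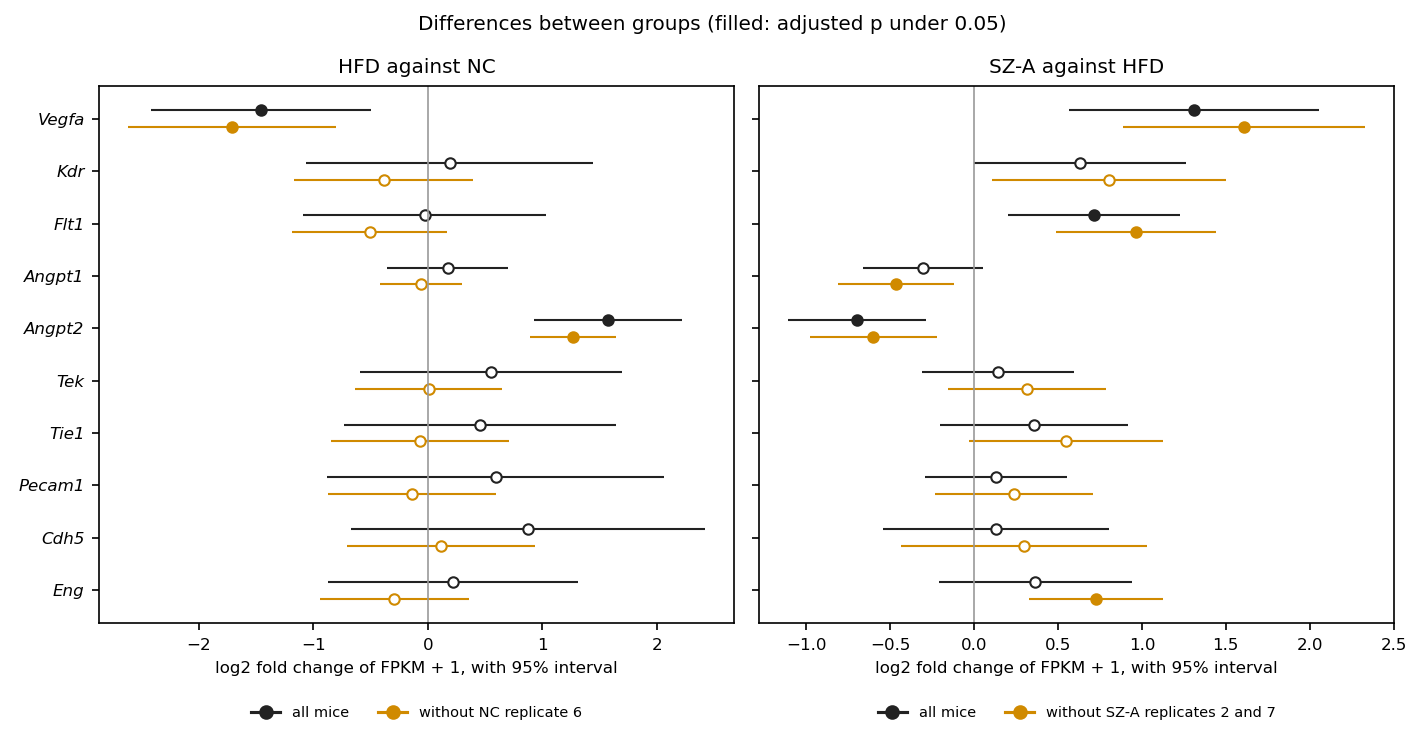
Log2 fold changes of FPKM + 1 with 95% intervals for the 10 genes, HFD against NC on the left and SZ-A against HFD on the right, with all mice and without NC replicate 6 (left) or SZ-A replicates 2 and 7 (right). Filled points mark an adjusted p under 0.05, which Vegfa and Angpt2 reached in both panels and on opposite sides of 0.

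SZ-A mice were also compared with NC mice, which asks how far treated mice stood from lean ones. Of the 10 genes, 0 were called by limma, against 4.61% of the 14718 genes tested, and 1 of the 10, Angpt2, had an unadjusted p under 0.05. The Angpt2 medians were 4.71 FPKM in SZ-A and 2.42 FPKM in NC mice (log2 fold change 0.87, SE 0.33, adjusted p = 0.16). Vegfa had medians of 46.8 and 52.6 FPKM and a change of -0.15 (95% interval -1.07 to 0.77). The 95% intervals of Cdh5 (-0.54 to 2.54) and Pecam1 (-0.72 to 2.17) were wider. The absence of calls thus does not show that the genes were back at the level of lean mice. Without NC replicate 6 the count was again 0, against 5.50% of all genes, with Angpt2 at 0.57 (SE 0.23, adjusted p = 0.20) and Vegfa at -0.40 (SE 0.40). The ratio of Angpt2 to Angpt1 was higher in SZ-A than in NC mice, at 1.32 ± 0.65 against 0.32 ± 0.49 (n = 7 and 6, exact permutation p = 0.012, adjusted p = 0.037). That difference was 0.93 without NC replicate 6 and no longer passed the correction (exact permutation p = 0.029, adjusted p = 0.087).

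Levels of other cell types moved with the same comparisons. All 12 macrophage markers listed were in the table, and their mean log2 level ran from 1.56 to 3.96 in NC, from 5.83 to 6.63 in HFD and from 4.46 to 5.58 in SZ-A mice. Of these 12, 11 rose with HFD and 10 fell with SZ-A, or 10 and 8 without NC replicate 6 and without SZ-A replicates 2 and 7. All 12 adipocyte markers were in the table too, with mean levels from 4.09 to 9.23 in NC (from 7.99 without replicate 6), from 5.98 to 8.20 in HFD and from 7.70 to 9.34 in SZ-A mice. Of the adipocyte markers 1 rose and 2 fell in HFD against NC mice, and 8 fell without NC replicate 6. In SZ-A against HFD mice 2 rose, and 10 did so without SZ-A replicates 2 and 7. Relative to the adipocyte marker mean of the same mouse, Vegfa stood at -3.27 ± 0.28 in HFD, -3.01 ± 0.55 in SZ-A and -2.82 ± 0.60 in NC mice without replicate 6 (-2.30 ± 1.37 with it). On that relative scale the spreads of the groups overlap. Relative to the mean of the 20 pan-endothelial genes, Angpt2 stood at -1.85 ± 0.73 for NC (-1.98 ± 0.74 without replicate 6), -0.54 ± 0.50 for HFD and -1.64 ± 0.46 for SZ-A mice. HFD values ran from -1.08 to 0.24, SZ-A values from -2.26 to -1.01 and NC values from -2.69 to -0.72. The ranges of NC and of SZ-A mice thus both reached into that of HFD mice. Relative to the same 20 genes, Flt1 stood at -0.69 ± 0.19 for HFD and -0.37 ± 0.18 for SZ-A mice. For NC mice it stood at -0.40 ± 0.17 (-0.36 ± 0.15 without replicate 6). Flt1 values ran from -0.89 to -0.30 in HFD and from -0.70 to -0.15 in SZ-A mice, so these ranges overlapped too. The part of cell composition in the changes of Vegfa, Angpt2 and Flt1 was not tested.

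Within groups the 7 receptors and junction genes varied together from mouse to mouse. Over 19 mice, NC replicate 6 left out, Pearson's r between the deviations of 2 of these genes from their group means ran from 0.46 to 0.94 with a median of 0.88. Eng was the loosest member, with its lowest value, 0.46, toward Cdh5. Vegfa, although its product is a ligand that other cells secrete, followed the 7 genes with r from 0.68 to 0.89. Angpt1 and Angpt2 did not, with r from -0.10 to 0.31 and from -0.21 to 0.28. With NC replicate 6 included, Angpt1 reached 0.48 to 0.73 and Angpt2 0.49 to 0.68 toward the 7 genes, whereas Vegfa stood at 0.70 to 0.84. These deviations also followed marker lists of other cells. Toward the mean of the adipocyte markers, r over the 19 mice ran from 0.47 (Eng) to 0.88 (Kdr) for the 7 genes. It was 0.79 for Vegfa, 0.10 for Angpt1 and -0.14 for Angpt2. Toward a list of pericyte genes the 7 ran from 0.62 (Eng) to 0.96 (Kdr). Toward the macrophage markers Eng was at 0.62 and the rest of the 7 from -0.14 (Cdh5) to 0.17 (Flt1). Toward the epididymal tract markers the 7 ran from -0.85 (Eng) to -0.29 (Cdh5), with Flt1 at -0.63. On that list Vegfa was at -0.56, Angpt2 at -0.34 and Angpt1 at 0.34. Toward the blood and lymphocyte markers the 7 ran from 0.20 (Cdh5) to 0.76 (Eng). There Vegfa was at 0.57, Angpt2 at 0.22 and Angpt1 at -0.10. The values of a mouse come from 1 library and share its depth and cell makeup, and the correlations are given as a description.

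**Figure D4:**
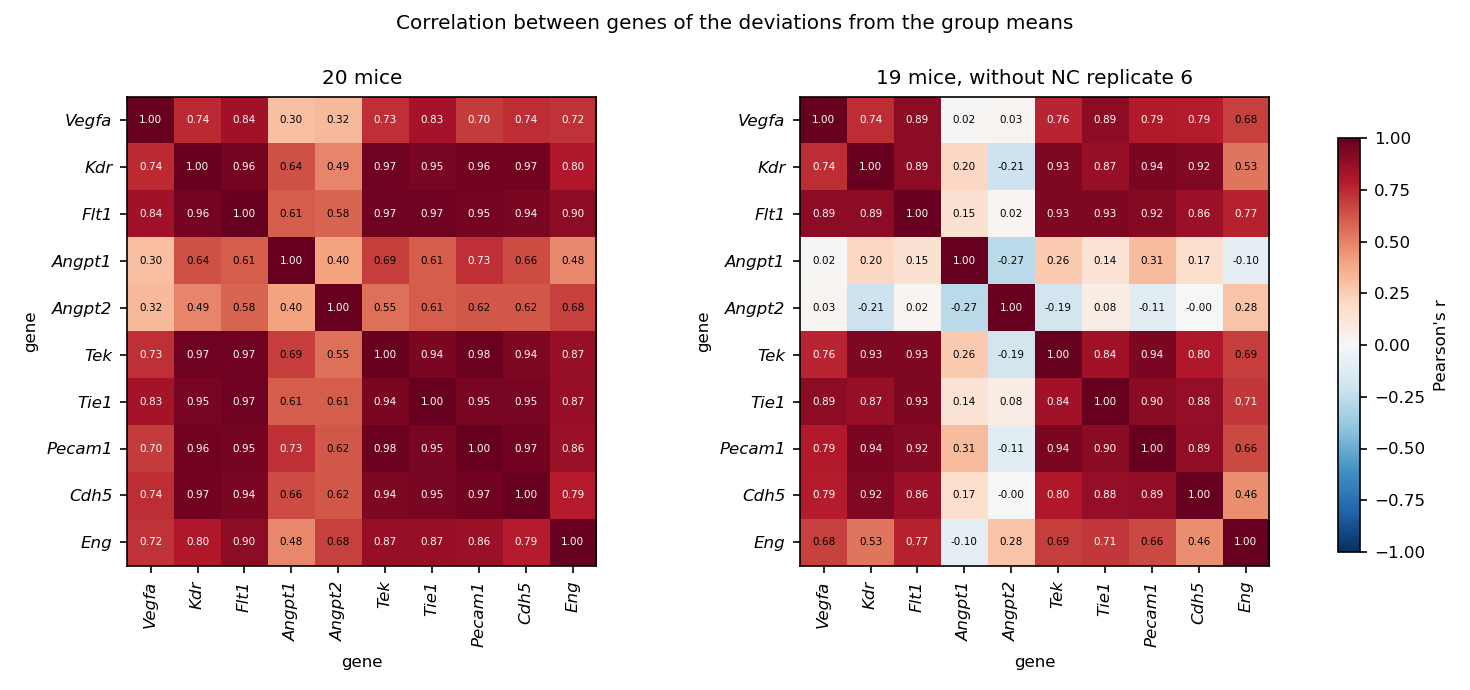
Pearson's r between the 10 genes of the deviations of log2(FPKM + 1) from the group means, with 20 mice on the left and with 19 mice on the right. The pale rows of Angpt1 and Angpt2 in the right panel hold values from -0.27 to 0.31, while the 7 endothelial genes and Vegfa form a block of 0.46 and above.

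The genes whose deviations were most like the mean of the 7 endothelial genes over the 19 mice were Cd300lg (r = 0.97) and Fgd5 (r = 0.97), followed by Adgrf5, Ablim1, Cdh13, Mmrn2, Flt4, Ephb4, Ebf3 and Aqp7 with r from 0.95 to 0.97. For Vegfa they were Nog (r = 0.95), the BMP antagonist noggin, Acacb (r = 0.94), an acetyl-CoA carboxylase, and Sh3pxd2a (r = 0.91). For Angpt2 they were Lgals3 (r = 0.82), the galectin abundant in macrophages, Tgfb1 (r = 0.81) and Reep4 (r = 0.81). For Angpt1 the closest was Camk2n1 (r = 0.74).

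The other genes of the VEGF and angiopoietin systems were read as lists, whose counts stand beside the 41.1% of all genes called in HFD against NC mice and the 22.8% called in SZ-A against HFD mice. Of 7 further VEGF ligands and receptors 2 rose and 0 fell in HFD against NC mice, and 1 rose and 1 fell in SZ-A against HFD mice. The neuropilin Nrp2, a co-receptor, rose with HFD from 3.59 ± 2.17 to 18.9 ± 4.40 FPKM (log2 fold change 2.30) and was lower with SZ-A at 8.76 ± 1.97 FPKM (log2 fold change -1.02, adjusted p = 0.0007). Pgf, a ligand of Flt1, rose with SZ-A from 2.04 ± 0.74 to 4.76 ± 2.24 FPKM, a call that was lost without SZ-A replicates 2 and 7 (adjusted p = 0.064). Of 8 partners of the angiopoietin receptors 3 rose and 0 fell with HFD, led by Dok2, an adaptor that docks on Tek and is also known in blood cells (log2 fold change 3.23), and with SZ-A 1 rose and 2 fell, among them Dok2, which fell by 1.07 on the log2 scale and was no longer called without SZ-A replicates 2 and 7 (adjusted p = 0.080). Without NC replicate 6 the HFD count of this list was 3 higher and 2 lower. Nos3, the endothelial nitric oxide synthase downstream of both systems, rose with SZ-A from 3.92 ± 1.82 to 8.19 ± 3.43 FPKM (log2 fold change 0.89, adjusted p = 0.039). Without NC replicate 6, Nos3 was also lower in HFD than in NC mice (log2 fold change -1.02, adjusted p = 0.025).

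Around Eng, 16 genes of endoglin and ALK1 signalling gave 4 higher and 3 lower calls in each of the 2 comparisons. Id1, a direct target of this pathway, fell from 69.2 ± 46.8 FPKM in NC to 21.7 ± 7.63 FPKM in HFD mice (log2 fold change -1.34, adjusted p = 0.040) and stood at 76.6 ± 44.3 FPKM in SZ-A mice (log2 fold change 1.61 against HFD, adjusted p = 0.0088). Bmper, an extracellular regulator of BMPs, took the other course, with 5.16 ± 3.73, 16.0 ± 5.18 and 5.03 ± 1.32 FPKM in NC, HFD and SZ-A mice, and the SZ-A and HFD values did not overlap. Of 14 Notch genes 2 rose and 2 fell in each comparison, with Rbpj, the DNA-binding partner of Notch, higher with HFD (log2 fold change 1.34) and lower with SZ-A (-0.84), and the ligand Jag2 higher with SZ-A (0.98). Without SZ-A replicates 2 and 7 the Notch count was 5 higher and 2 lower.

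Among 16 further junction genes, 1 rose and 3 fell in HFD against NC mice and 3 rose and 0 fell in SZ-A against HFD mice, or 7 and 0 without SZ-A replicates 2 and 7. F11r, the junction adhesion molecule JAM-A, which epithelia also carry, had 41.9 ± 4.35 FPKM in NC, 16.0 ± 5.57 FPKM in HFD and 27.9 ± 6.58 FPKM in SZ-A mice, and its rise with SZ-A was lost without SZ-A replicates 2 and 7 (adjusted p = 0.060). Of 17 endothelial transcription factors 5 rose and 1 fell with HFD, or 5 and 3 without NC replicate 6, led by Lmo2 (log2 fold change 2.42) and Gata2 (-1.13), and 1 rose and 4 fell with SZ-A, where the same 2 genes led with -0.99 for Lmo2 and 0.47 for Gata2. Leaving out SZ-A replicates 2 and 7 gave 3 higher and 3 lower, turned the median of the list from -0.05 to 0.16 and made Sox17 the largest rise (1.15).

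The next lists hold genes of single vessel types, whose counts were not tested against each other. Of 11 genes of fat capillaries 6 rose and 0 fell in SZ-A against HFD mice, where 9.47% of all genes rose and 13.3% fell. Their median log2 fold change was 0.79, beside 0.03 over all genes and 0.88 over the 12 adipocyte markers. They were led by Timp4, an inhibitor of matrix metallopeptidases, at 44.1 ± 20.2 against 13.2 ± 5.59 FPKM without overlap (log2 fold change 1.67, adjusted p = 0.0035). Without SZ-A replicates 2 and 7 the count was 8 of 11, with a median of 1.11. In HFD against NC mice 1 of these genes rose and 0 fell with all mice, and 2 rose and 4 fell without NC replicate 6, led by the carbonic anhydrase Car4 (21.3 ± 9.11 against 130 ± 104 FPKM, log2 fold change -2.23). Fabp5, a fatty acid binding protein that macrophages also express, was the largest rise (2.46 with all mice, 2.12 without NC replicate 6). Several of these genes, among them Cd36 and Fabp5, are also expressed by adipocytes or macrophages.

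Of the 20 other pan-endothelial genes 2 rose and 0 fell with HFD, and 4 rose and 2 fell with SZ-A. Without SZ-A replicates 2 and 7 the second count was 10 higher and 2 lower. In SZ-A mice Egfl7, a secreted endothelial protein, had a median of 26.2 FPKM and a highest value of 88.8 FPKM, in replicate 5. With all mice it was the largest rise of the list with SZ-A (12.3 ± 4.49 to 33.4 ± 25.5 FPKM, log2 fold change 1.20). Cd93 went the other way, rising to 52.5 ± 6.39 FPKM with HFD (log2 fold change 2.32, SE 0.54) and standing at 27.5 ± 6.46 FPKM with SZ-A (log2 fold change -0.93, adjusted p = 0.0007), and it is also a gene of myeloid cells. Of 8 arterial genes 0 rose and 1 fell with HFD (Efnb2, log2 fold change -0.70) and 1 rose with SZ-A (the connexin Gja4, 0.64), while 3 fell with HFD without NC replicate 6 and 4 rose with SZ-A without replicates 2 and 7. Of 7 venous genes 3 rose and 1 fell with HFD, and 1 rose and 2 fell with SZ-A, led in both by the adhesion molecule Icam1 (3.28 ± 1.95, 10.2 ± 1.56 and 5.56 ± 1.11 FPKM in NC, HFD and SZ-A mice). Of 8 lymphatic genes 4 were tested, of which Reln fell with HFD (-0.37) and Pdpn fell with SZ-A (-0.83). Reln was low in both groups, at 0.39 ± 0.19 FPKM in NC and 0.07 ± 0.05 FPKM in HFD mice. Without NC replicate 6 Pdpn also rose with HFD (1.16).

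Of 11 genes of sprouting tip cells 6 rose and 0 fell with HFD, where 21.0% of all genes rose. Their median log2 fold change was 1.03, or 0.73 without NC replicate 6, and they were led by Plaur, the urokinase receptor (2.96 ± 2.14 to 22.6 ± 10.6 FPKM, log2 fold change 2.67). With SZ-A 2 rose and 2 fell, the largest being Pgf (0.86) and Cxcr4 (-0.91). Without SZ-A replicates 2 and 7 the count was 1 higher (Adm, 0.81) and 0 lower, with Cxcr4 at adjusted p = 0.093. Plaur and Cxcr4 are also expressed by leukocytes. The macrophage markers rose with HFD and fell with SZ-A, whereas of the 8 blood and lymphocyte markers 0 rose and 1 fell with HFD and 5 rose and 0 fell with SZ-A, and the part of either was not tested.

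Of 11 pericyte genes 2 rose and 0 fell with HFD, and 1 rose and 2 fell with SZ-A. Pdgfrb, the receptor by which vessels recruit pericytes and which fibroblasts share, rose with HFD from 9.96 ± 8.22 to 30.7 ± 5.63 FPKM and fell with SZ-A to 18.4 ± 4.64 FPKM. Higd1b, a pericyte gene, rose with SZ-A (log2 fold change 0.78, adjusted p = 0.045). Without NC replicate 6 the HFD count of the list was 2 higher and 3 lower, led downward by the potassium channel Kcnj8 (-1.08). Of 8 fibroblast progenitor markers 4 rose with HFD and 5 fell with SZ-A. Of 10 smooth muscle genes 6 fell with HFD, or 9 without NC replicate 6, and 2 rose with SZ-A. The largest fall was Actg2, at 293 ± 387 FPKM in NC against 1.03 ± 1.15 FPKM in HFD mice, and the largest rise Myh11, at 22.5 ± 33.0 against 5.30 ± 2.59 FPKM, with an SD above the mean in both groups for Actg2 and in SZ-A mice for Myh11. Leaving out NC replicate 6 took Actg2 from -5.70 to -5.01 on the log2 scale. Myh11 in SZ-A mice was 9.85 ± 1.92 FPKM without replicates 2 and 7 (log2 fold change 0.88, adjusted p = 0.032). The 4 epididymal tract markers tested all fell with HFD. The mean log2 level of the smooth muscle list was highest in NC replicates 2 and 5 (6.20 and 6.55) and SZ-A replicate 7 (5.53). These mice also carried Cdh1, but the level did not simply follow Cdh1. The mice with the most Cdh1, NC replicates 6 and 1 (71.1 and 56.2 FPKM), had smooth muscle levels of 3.10 and 3.88. NC replicate 6 was the lowest NC mouse on that list. SZ-A replicate 2 had more Cdh1 than SZ-A replicate 7 (28.4 against 26.1 FPKM) and a lower smooth muscle level. The part of epididymal tract tissue in these values was not tested.

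The hypoxia response, through which Vegfa itself is induced, was read from 22 other genes. With HFD 3 rose and 5 fell, and with SZ-A 5 rose and 2 fell, with medians of -0.08 and 0.24. The prolyl hydroxylase Egln3 fell with HFD (7.84 ± 4.65 to 0.70 ± 0.26 FPKM, log2 fold change -2.19) and the glycolytic regulator Pfkfb4 rose (to 14.2 ± 4.21 FPKM, log2 fold change 2.12, SE 0.24). With SZ-A Pfkfb4 fell (-1.03) and the hexokinase Hk2 rose (0.87, lost without SZ-A replicates 2 and 7, adjusted p = 0.065). Members of the list thus went both ways in both comparisons.

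Of 11 angiogenesis inhibitors 3 rose and 1 fell with HFD, and 0 rose and 1 fell with SZ-A. Serpinf1 (PEDF) accounted for the largest rise and for the fall with SZ-A, with 151 ± 16.1 FPKM in HFD mice (log2 fold change 3.10 against NC, SE 0.59, or 2.43 without NC replicate 6) and 87.7 ± 28.1 FPKM in SZ-A mice, and the SZ-A and HFD values did not overlap (log2 fold change -0.86, adjusted p = 0.015). Without SZ-A replicates 2 and 7 the inhibitors gave 1 higher and 2 lower. Of 16 other angiogenic growth factors 7 rose and 1 fell with HFD. Leptin led the rises (Lep, log2 fold change 2.85). The fall was that of Egf (-1.87), from 4.24 ± 4.37 FPKM in NC to 0.08 ± 0.03 FPKM in HFD mice. Leaving out NC replicate 6 took Lep to 1.96, gave 9 higher and 1 lower and made Mdk the largest rise (2.12). With SZ-A 0 rose and 1 fell, which was Hgf (3.15 ± 0.59 to 1.04 ± 0.55 FPKM, log2 fold change -1.05, adjusted p = 0.0004), or 1 and 1 without SZ-A replicates 2 and 7.

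**Figure D5:**
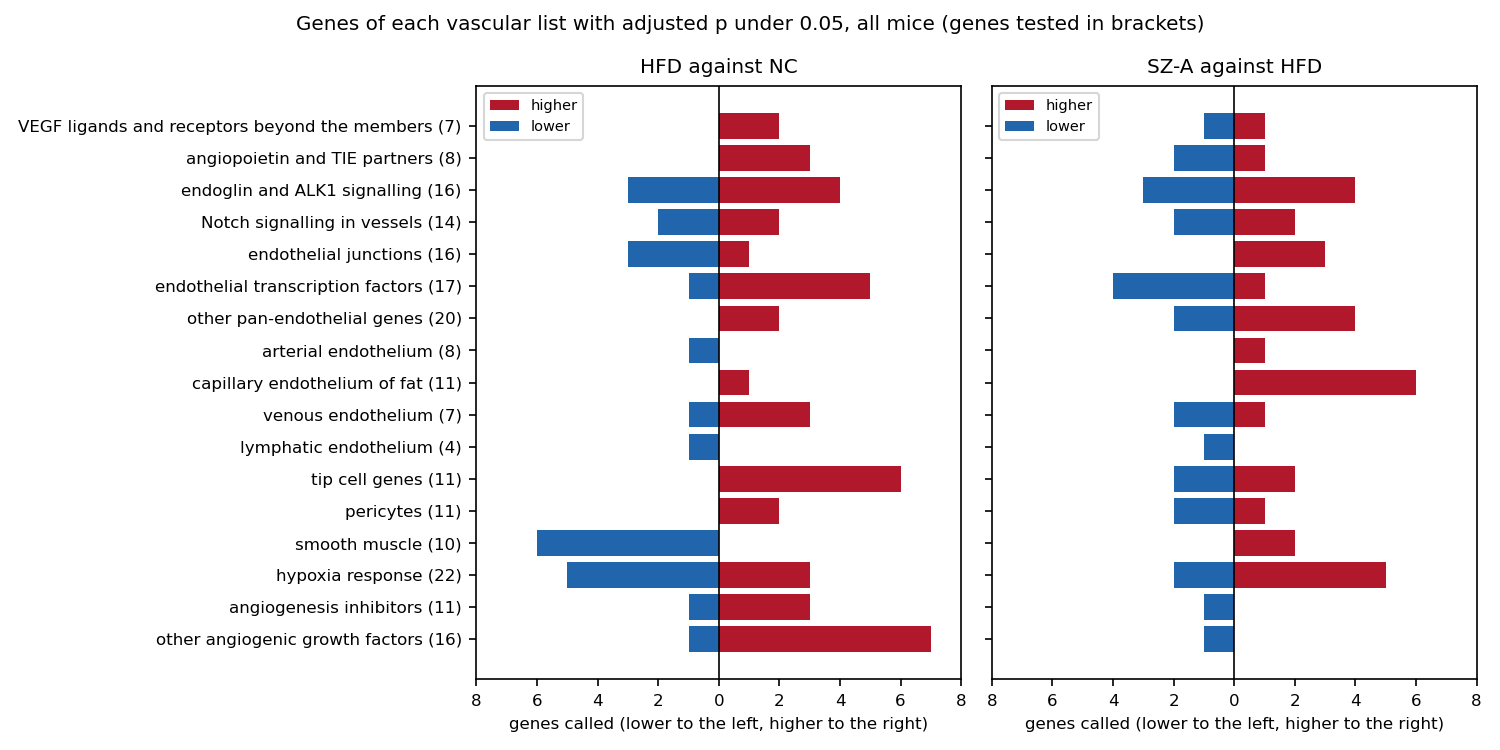
Number of genes called in each vascular list with all mice, lower to the left and higher to the right of 0, with the number of genes tested in brackets. The capillary list has 6 of 11 genes higher and 0 lower in SZ-A against HFD mice, and the smooth muscle list has 6 of 10 lower in HFD against NC mice.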

How the data were processed

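Poly(A) RNA of eWAT from 20 mice was sequenced as paired-end reads. The authors used HISAT2 for alignment to GRCm38, counted the reads with featureCounts 1.5.0-p3 according to the submitters' processing notes, and deposited FPKM for 14776 genes, each above 0 in every mouse. Whether strand was used in counting is not given in the sources used here. All 20 columns were used, and replicates were not pooled. Genes were named from GENCODE release M21, in which 14770 were found, and exon lengths came from the same release. Reads were recovered from FPKM and exon length: between 95.9% and 96.3% of the values under 1000 reads were whole numbers within 0.01 reads. They give the depth and an alternative with voom.

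Groups were compared in pairs with limma 3.58.1 (R 4.3.3) on log2(FPKM + 1). Genes below a mean of 0.1 FPKM in the mice of a comparison were left out. A variance trend was fitted, and p-values were adjusted by Benjamini-Hochberg over every gene tested. The steps were run on simulated reads, drawn with the same dispersion for every gene and without odd libraries. That run says nothing about libraries such as NC replicate 6. The added 1 shrinks fold changes of low genes such as Angpt1. Ratios of 2 genes were compared by two-sided exact permutation tests. Each library is labelled as a separate sample, and p-values measure the spread between these samples. All 10 genes are named. From each other list the counts, the median and the largest called rise and fall are given, and for likeness the closest genes among those averaging 1 FPKM or more. The 10 genes and the lists were chosen with earlier results of these data known. Some genes are in more than 1 list. Alternatives covered the pseudocount (0.1), the filter (none, or 1 FPKM), median-ratio scaling, quantile normalization, all 3 groups in 1 fit, array quality weights, voom, a replicate block, a log2 fold change above 1.5, medians, and leaving out each mouse. Leaving out SZ-A replicates 2 and 7 was added after seeing the data. Tables and plots were made with Python 3.11.15, pandas 2.3.3, NumPy 2.4.6 and matplotlib 3.10.9.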

Additional observations from a re-analysis of the deposited data

Results flagged for a closer look

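In 36 groups of mice the highest and the lowest value of each gene and ratio were compared with the rest of the group by Dixon's ratio, and 4 values stood apart, where chance alone flags about 1 in 20 groups. On the log2(FPKM + 1) scale Cdh5 was 1.29 in NC replicate 6, against 4.98 in the next NC mouse, and Angpt2 was 0.0266 in the same mouse, against 1.45 in the next. Angpt2 was 3.71 in HFD replicate 5, against 3.22 in the next HFD mouse, so that the highest Angpt2 value of the series comes from a single HFD mouse. Tie1 was 3.46 in SZ-A replicate 2, against 4.14 in the next SZ-A mouse.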

How the results depend on the processing

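Leaving out a mouse kept 2 genes called in HFD against NC, 2 to 3 in SZ-A against HFD and 0 in SZ-A against NC. With the log2 fold change above 1.5 required, 1 gene was called in HFD against NC and 0 in SZ-A against HFD. In SZ-A against HFD 1 gene was called with all 3 groups in the fit (Vegfa, with Angpt2 at adjusted p = 0.095 and Flt1 at 0.26), 5 with array quality weights (Kdr and Eng added) and 5 without SZ-A replicates 2 and 7. In SZ-A against NC 1 was called with array quality weights (Angpt2, adjusted p = 0.036). The number of all genes called moved with these counts, from 3349 with all mice to 2089 with all 3 groups in the fit and 6403 with array quality weights in SZ-A against HFD. The cause was not tested. Over the planned and added alternatives other than single left-out mice, Vegfa lay between 1.31 and 1.61 and Angpt2 between -0.84 and -0.60 in SZ-A against HFD, with adjusted p up to 0.044 and 0.095. In HFD against NC Angpt2 lay between 1.39 and 2.59 and Vegfa between -1.71 and -1.45, with adjusted p up to 0.016 and 0.047.

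Changes of sign touched only values that were not called. In HFD against NC Flt1 became 0.11 with a pseudocount of 0.1 and 0.16 with voom, and array quality weights gave -0.16 for Kdr, -0.081 for Angpt1 and -0.16 for Eng. In SZ-A against NC voom gave 0.088 for Angpt1. Leaving out single mice moved HFD against NC between -0.14 and 0.97 for Pecam1, -0.39 and 0.49 for Kdr, -0.51 and 0.27 for Flt1, -0.069 and 0.73 for Tie1, -0.062 and 0.27 for Angpt1 and -0.29 and 0.55 for Eng, the lower end always without NC replicate 6 and the upper end without NC replicate 3. It moved SZ-A against HFD between -0.00010 and 0.21 for Pecam1 and -0.074 and 0.29 for Cdh5, the lower end without HFD replicate 1, and SZ-A against NC between -0.0084 and 1.10 for Pecam1 and -0.40 and 0.15 for Vegfa. The ratio of Flt1 to Kdr in SZ-A against HFD was -0.11 as a difference of medians and between -0.026 and 0.15 with single mice left out.

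Replicate numbers are shared between the groups, but nothing in the labels pairs the mice, and deviations of same-numbered mice correlated between -0.41 and 0.59. With the replicate number as a block, 2 genes were called in HFD against NC, 2 in SZ-A against HFD, where Flt1 was lost (adjusted p = 0.098), and 0 in SZ-A against NC. The lowest counts were in NC replicate 6, where Angpt2 rested on 1 read. That library held 13567667 reads on the deposited genes, beside 16010747 to 17784213 in the other NC mice. In the other mice each of the 10 genes had at least 45 reads.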
